A study of Mus musculus with 2 samples.

Results

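Mir378a, Mir107, Mir103-1, Mir103-2 and Mir33 are 5 miRNA genes that lie inside genes of energy, coenzyme A and cholesterol metabolism. They were taken by name from the 2202 annotated miRNA genes of the mouse because of their host genes, with earlier results of these data known. All 5 had at least 1 read in each library. Short RNAs were sequenced from total RNA of the heart. The animals were B6CASTF1/J males, a first-generation cross between the B6 and CAST inbred strains, 36 days old by the age label, where a free-text label has months in place of days. The 2 libraries form a single group, biological replicates 1 and 2, with no treatment and no contrast of conditions. The labels number the males differently but give both the same donor record, so the n of 2 stands for samples and an SD measures the spread between these samples, which may be technical.

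A miRNA is cut from the stem of a hairpin and guides a silencing complex to messenger RNAs that pair with its seed, the bases near its 5′ end. A hairpin in an intron is usually transcribed together with its host. Mir378a lies in Ppargc1b, which encodes PGC-1beta, a coactivator of genes for mitochondria and fatty acid use, and miR-378a is known as an abundant miRNA of heart and skeletal muscle. Mir107, Mir103-2 and Mir103-1 lie in Pank1, Pank2 and Pank3, which encode pantothenate kinases, the enzymes of the rate-controlling step of coenzyme A synthesis, and the miR-103 and miR-107 pair is known for its influence on insulin sensitivity. Mir33 lies in Srebf2, which encodes SREBP-2, the activator of cholesterol synthesis genes, and miR-33 is known to repress the cholesterol exporter ABCA1.

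RefSeq entries on GRCm38.p6 matched 4 of the 5 genes, all but Mir378a. Their mature sequences are shown because they decide which reads can be told apart, written 5′ to 3′ with the seed, bases 2 to 8, in capitals. The 3p arms of the 3 pantothenate kinase genes share 1 seed, and their 5p arms share another.
miR-107-3p: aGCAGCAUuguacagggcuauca
miR-103-3p: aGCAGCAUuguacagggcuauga
miR-107-5p: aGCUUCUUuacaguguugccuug
miR-103-2-5p: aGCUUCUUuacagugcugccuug
miR-103-1-5p: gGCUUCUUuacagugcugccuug
miR-33-5p: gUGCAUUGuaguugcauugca
miR-33-3p: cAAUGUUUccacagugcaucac
Counted from 1 at the 5′ end, miR-103-3p and miR-107-3p differ by the single substitution G22C, miR-103-3p first. A read that ends before that base therefore matches all 3 pantothenate kinase hairpins. The sequence of miR-103-3p stands in 2 annotated hairpins, Mir103-1 and Mir103-2, so a read of it without flanking bases matches both. The 5p arms of Mir103-2 and Mir103-1 differ by A1G, and those of Mir103-2 and Mir107 by C16U. Each arm of Mir33 was the only RefSeq mouse arm with its seed.

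The whole hairpins of the same 4 genes are given with both mature arms in capitals, since the bases around the arms are what separates near-identical loci.
Mir107: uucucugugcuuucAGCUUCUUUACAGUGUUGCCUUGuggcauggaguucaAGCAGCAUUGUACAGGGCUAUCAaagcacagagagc
Mir103-2: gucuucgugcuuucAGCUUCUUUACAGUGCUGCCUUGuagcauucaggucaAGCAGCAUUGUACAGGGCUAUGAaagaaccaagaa
Mir103-1: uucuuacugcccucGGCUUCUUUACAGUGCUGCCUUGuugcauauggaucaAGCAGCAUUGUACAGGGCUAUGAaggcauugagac
Mir33: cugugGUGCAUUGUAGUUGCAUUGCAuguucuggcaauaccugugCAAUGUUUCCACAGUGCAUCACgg
In an end-to-end alignment, Mir107 and Mir103-2 were identical at 73 of 87 positions (83.9%), Mir107 and Mir103-1 at 70 of 87 (80.5%), and Mir103-2 and Mir103-1 at 69 of 86 (80.2%). The longest run that Mir103-2 and Mir103-1 shared was 27 bases, against 24 bases for either of them with Mir107. Mir33 shared no run longer than 8 bases with any of the 3. Each pantothenate kinase hairpin held a stretch of 22 bases, about the length of a mature miRNA, found in both of the others. Mir33 and Mir378a shared no such stretch with another annotated hairpin, while 1023 of the 2202 annotated genes did.

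The seed of miR-103-3p and miR-107-3p was found in 3 of 1738 RefSeq mature arms, those of the 3 pantothenate kinase genes. Shifted by 1 base it meets another family: bases 1 to 7 of miR-103-3p are the seed of 11 other arms from 11 genes, most of them of the mir-15/16 family. The arms of miR-15a, miR-16 and miR-322 are given with the shared letters in capitals.
miR-15a-5p: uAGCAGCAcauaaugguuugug
miR-16-5p: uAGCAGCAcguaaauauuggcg
miR-322-5p: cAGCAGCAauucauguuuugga
Beyond those letters, the arms of this family differ from miR-103-3p, and their levels are set beside the pantothenate kinase loci further on.

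Library 1 held 5479149 reads and library 2 held 4893073, and 1999362 (36.5%) and 1862526 (38.1%) of them fell on the sense strand of a miRNA gene, here called assigned reads. Levels are counts per 1000000 of these assigned reads (CPM), and intervals are exact Clopper-Pearson 95% intervals that cover counting error only. A level of 3 counts, used here as a floor, equals 1.5005 CPM in library 1 and 1.61 CPM in library 2. For a count of 0 the exact interval reaches 1.85 CPM in library 1 and 1.98 CPM in library 2. Reads that mapped to several places made up 41.5% and 42.9% of all reads and were given to no gene. The cardiac miRNA Mir208a, from the gene of the alpha myosin heavy chain, stood at 7003.7 and 3392.7 CPM. Mir499, from another myosin gene, stood the other way round at 1335.9 and 3141.4 CPM, and Mir208b at 150.5 and 103.1. All 7 cardiac muscle markers had reads. Of those 7, Mir1a-1, Mir1a-2, Mir133a-1 and Mir133a-2 stood between 1.07 and 57.5 CPM in each library. Reads that mapped to several places are not in these levels, so markers with near-identical copies may be undercounted here. Among markers of other cells, endothelial Mir126a took 4.89% and 6.38% of assigned reads and the smooth muscle pair Mir143 and Mir145a 3.95% and 3.87%. The leukocyte list took 0.689% and 0.678%, the erythroid list 0.245% and 0.197%, and 5 of 6 neuronal markers were at 0 assigned reads. With reads that mapped to several places left out, a count of 0 here does not show absence. In bulk tissue, fewer cells of a type and less RNA per cell cannot be told apart.

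Mir378a had 271612 reads in library 1 and 279837 in library 2, the most of all annotated miRNA genes among assigned reads. Reads that mapped to several places are not in this ranking, so genes with near-identical copies may be undercounted in it. Its level was 135849.3 CPM (135374.7 to 136325.0) and 150246.0 CPM (149733.1 to 150759.9), a mean of 143047.6 ± 10179.9 CPM (SD, n = 2). It alone took 13.6% and 15.0% of the assigned reads of the heart. By reads, not scaled for length, it exceeded Mirlet7i, the gene with the second highest mean, 1.39 times in library 1 and 1.72 times in library 2. Both libraries thus placed it first, and by more than the 1.106-fold difference between its own levels in them.

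**Figure D1:**
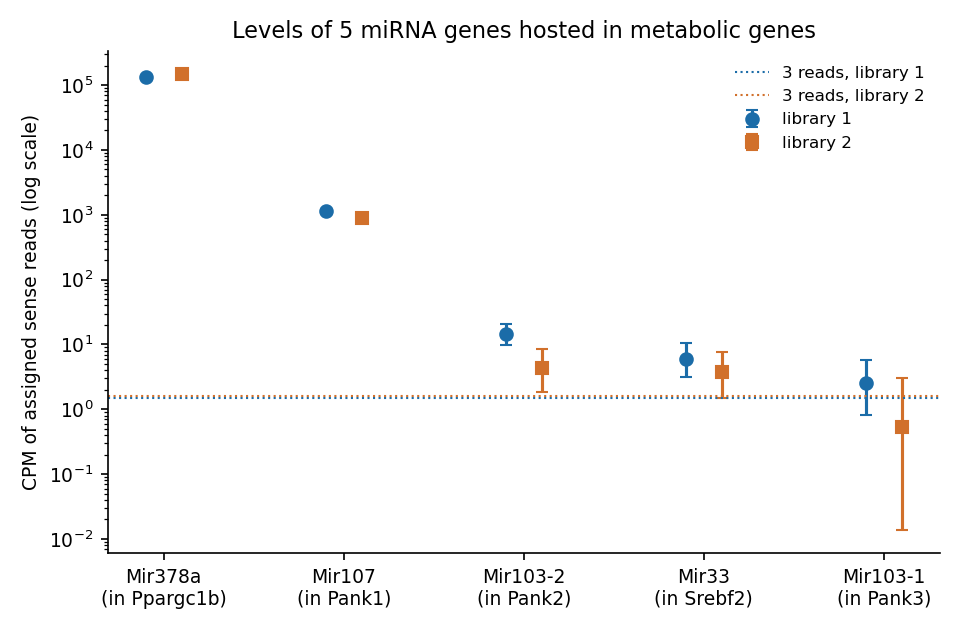
Level of each of the 5 miRNA genes in library 1 (circles) and library 2 (squares), as CPM of assigned sense-strand reads on a log scale, with exact 95% counting intervals. Dotted lines mark 3 reads in each library: Mir378a and Mir107 lie far above them, and Mir103-1 falls below its line in library 2.

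Mir107, the gene in Pank1, had 2316 and 1644 reads. They gave 1158.4 CPM (1111.7 to 1206.5) in library 1 and 882.672 CPM (840.533 to 926.376) in library 2, a mean of 1020.5 ± 194.947 CPM (SD, n = 2). It ranked 68 among the annotated genes by assigned reads. Its hairpin shares a stretch of 22 bases with those of Mir103-1 and Mir103-2. Reads of Mir107 that mapped to several places are not in this level, and their number was not tested. Library 1 was the higher one, and the 2 intervals did not overlap. By assigned reads, Mir378a exceeded Mir107 117.3 times in library 1 and 170.2 times in library 2.

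Mir103-2, the gene in Pank2, had 29 and 8 reads, 14.5 CPM (9.71 to 20.8) and 4.30 CPM (1.85 to 8.46), a mean of 9.40 ± 7.22 CPM (SD, n = 2) at rank 266. Mir103-1, the gene in Pank3, had 5 reads in library 1 and 1 read in library 2. That is 2.50 CPM (0.812 to 5.84) and 0.537 CPM (0.0136 to 2.99), a mean of 1.52 ± 1.39 CPM (SD, n = 2) at rank 387. In library 2 its level lay under that of 3 counts. For both genes the SD was not far below the mean. For Mir103-2 the intervals of the libraries did not overlap while for Mir103-1 they did.

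Mir33, the gene in Srebf2, had 12 and 7 reads, which are 6.002 CPM (3.10 to 10.5) and 3.76 CPM (1.51 to 7.74). Its mean was 4.88 ± 1.59 CPM (SD, n = 2) at rank 298, and its intervals overlapped. Unlike the Mir103 genes, it shares no seed with another RefSeq mouse arm and no stretch of 22 bases with another annotated hairpin.

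Scaled by hairpin length, the means were 2167.4 CPM per base for Mir378a (66 bases), 11.7 for Mir107 (87 bases), 0.109 for Mir103-2 (86 bases), 0.0707 for Mir33 (69 bases) and 0.0177 for Mir103-1 (86 bases). The order by mean was thus Mir378a, Mir107, Mir103-2, Mir33 and Mir103-1, per base and per gene. Mir378a stood apart from Mir107, and Mir107 from the rest, in both libraries. Of the lower 3, neighbours in this order did not separate. In library 2, Mir33 at 0.0545 CPM per base passed Mir103-2 at 0.0499, whereas in library 1 they stood at 0.0870 and 0.169. Their counting intervals in CPM overlapped in both libraries. Those of Mir33 and Mir103-1 overlapped in both as well. Mir103-2 and Mir103-1, which are not neighbours in the order, had intervals that did not overlap in library 1 and overlapped in library 2.

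**Figure D2:**
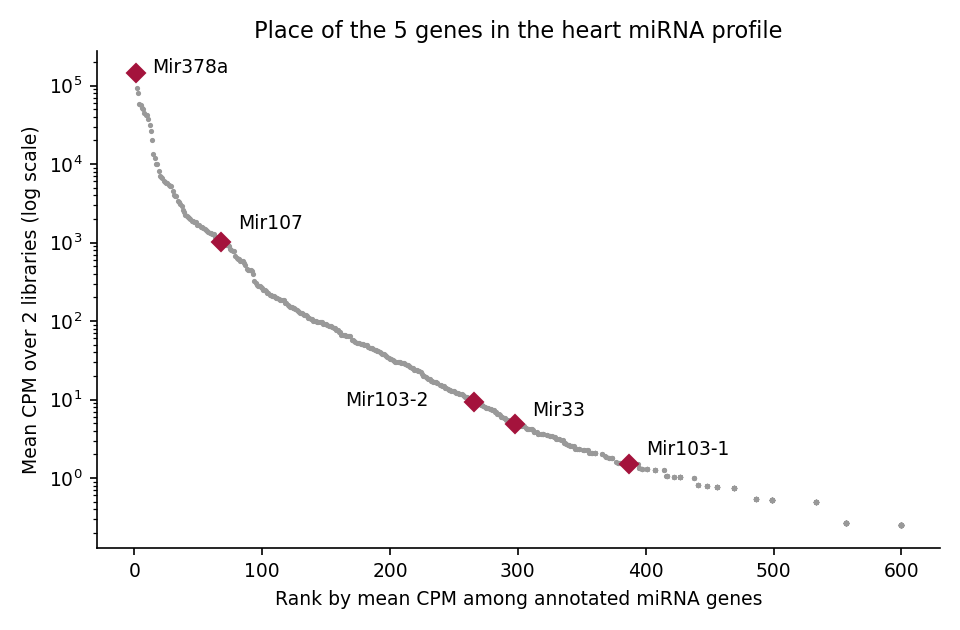
Mean CPM over the 2 libraries (log scale) of the annotated miRNA genes with a count, against their rank, with the 5 genes marked. They span the profile from rank 1 (Mir378a) through rank 68 (Mir107) to ranks 266, 298 and 387.

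Summed, the 5 genes held 13.7% of the assigned reads of library 1 and 15.1% of those of library 2, a mean of 14.4% ± 0.997 (SD, n = 2). Of their reads, 99.1% and 99.4% were those of Mir378a. By the distance of log2(CPM + 1) over the 2 libraries, the genes nearest in level to Mir378a were Mirlet7i (0.915), with 97459.6 and 87491.9 CPM, and Mirlet7g (1.24), with 86721.7 and 72246.0 CPM. The third was Mir23b (1.84), with 57868.0 and 58035.2 CPM. Nearest to Mir107 were Mir324 (0.150), with 1050.3 and 914.9 CPM, Mir484 (0.184), with 1071.8 and 797.8 CPM, and Mir497 (0.254), with 1175.9 and 740.4 CPM. Mir107 thus had neighbours close to its level, and even the nearest gene to Mir378a lay well below it.

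In the GENCODE M21 annotation on mm10, all 5 hairpins lie on the strand of their host, within an intron, and no coding transcript of the host covers them with an exon. Mir107 lies on the minus strand of chromosome 19 at 34820687 to 34820773, in intron 5 of 6 of Pank1. Mir103-2 lies on the plus strand of chromosome 2 at 131288052 to 131288137, in intron 5 of 6 of Pank2. Mir103-1 lies on the plus strand of chromosome 11 at 35782396 to 35782481, in intron 5 of 6 of Pank3. The same intron number was thus used in all 3 kinase genes, and in each the intron lies between an exon of 124 bases and an exon of 126 bases. Pank4, the remaining gene of the family, held no annotated miRNA gene.

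Within that intron, the hairpin lies 326 bases past the upstream exon for Mir107, 454 for Mir103-2 and 688 for Mir103-1. The introns differ in length, at 7282, 5801 and 1740 bases, so Mir103-1, with 966 bases left to the downstream exon, lies nearer the middle of its intron. Mir33 lies on the plus strand of chromosome 15 at 82198122 to 82198190, in intron 16 of 18 of Srebf2, an intron of 1848 bases, and 335 bases past the upstream exon. Srebf1, the paralog of Srebf2, held Mir6921 and Mir6922, which had 5 reads in all over both libraries. Mir378a lies on the minus strand of chromosome 18 at 61397835 to 61397900, in intron 1 of 11 of Ppargc1b, 2389 bases past exon 1. That intron is 76981 bases long, and the paralogs Ppargc1a and Pprc1 held no annotated miRNA gene.

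**Figure D3:**
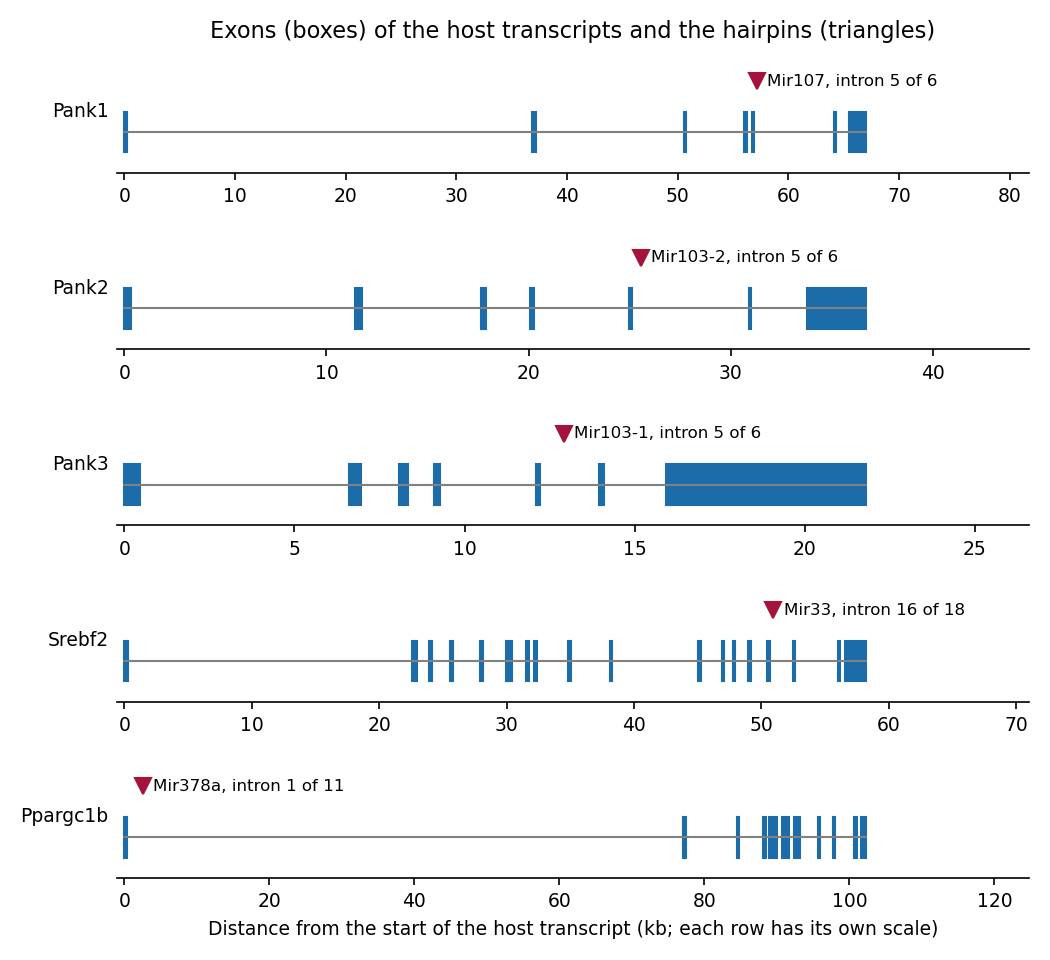
Exons of a coding transcript of each host (boxes, widened where too thin to see) and the place of the hairpin (triangle), in kb from the transcript start, each row on its own scale. Mir107, Mir103-2 and Mir103-1 lie in intron 5 of 6, Mir33 in intron 16 of 18 and Mir378a in intron 1 of 11.

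Among all annotated miRNA genes, 969 of 2202 lie inside a protein-coding gene on its strand, and 792 of these within an intron of its chosen coding transcript. The median distance of the 792 from the upstream exon was 3006 bases, and the median length of their introns was 8001 bases. Within 1000 bases of the upstream exon lay 269 of the 792 (34.0%), among them 4 of the 5 metabolic-gene hairpins, all but Mir378a. Intron 1 held 157 of the 792 (19.8%), and 87 lay in an intron longer than that of Mir378a. These places are a description, with no test.

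Genes inside a coding gene took 57.4% of assigned reads in library 1 and 59.7% in library 2, and Mir378a made up 23.7% and 25.2% of those. At 10 CPM or more in both libraries were 110 of the 969 hosted genes (11.4%) and 133 of the 1233 others (10.8%). Mir378a and Mir107 were the 2 of the 5 that reached this level in both. Among the 969 by mean CPM, Mir378a ranked 1, Mir107 ranked 35, Mir103-2 ranked 121, Mir33 ranked 135 and Mir103-1 ranked 197. Of the 969, 573 had no read, so a rank of 197 still lies among the 396 hosted genes with a count.

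The strand of the count decided whether Mir378a was seen. A second annotated miRNA gene, Gm25301, lies over it on the opposite strand of chromosome 18, at 61397813 to 61397925. With both strands counted together, Mir378a had 0 reads in each library. In the column read as antisense, Gm25301 held 271612 and 279837 reads, exactly the sense-strand counts of Mir378a, and on its own strand it held 0. The Mir378a reads equalled 62.7% and 62.1% of the reads left ambiguous when both strands were counted together, 432966 and 450849. The other 4 genes had the same counts in both columns.

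The mir-378 relatives were far below Mir378a. Mir378d had 290 and 362 reads (145 and 194 CPM, mean 169.7 ± 34.9, SD, n = 2), Mir378c 42 and 60 reads (21.01 and 32.2 CPM) and Mir378b 22 and 26 reads (11.004 and 13.96 CPM). Per base of hairpin the means were 1.54 CPM for Mir378d, 0.269 for Mir378c and 0.136 for Mir378b, against 2167.4 for Mir378a. The reads of Mir378a exceeded those of the 3 together 767 times (691 to 854) in library 1 and 625 times (569 to 687) in library 2, a mean log2 ratio of 9.44 ± 0.21 (SD, n = 2). Reads that mapped to several places are not in these counts, and how many came from the mir-378 genes was not tested. Among the relatives, Mir378d exceeded Mir378b and Mir378c together 4.53 times (3.45 to 6.04) and 4.21 times (3.32 to 5.39). The intervals of that split overlapped, and none of the 3 relatives was called between the libraries by the test described further on.

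Within the pantothenate kinase genes, Mir107 held nearly all assigned reads. It had 68.1 times (48.6 to 98.6) the reads of both Mir103 loci in library 1 and 182.7 times (96.0 to 400.2) in library 2, a mean log2 ratio of 6.80 ± 1.01 (SD, n = 2). Mir103-2 held 29 of the 34 Mir103 reads of library 1 (85.3%, 68.9 to 95.05) and 8 of the 9 of library 2 (88.9%, 51.8 to 99.7). The log2 ratio of Mir103-2 to Mir103-1 was 2.54 and 3.00, a mean of 2.77 ± 0.33 (SD, n = 2). With 2 libraries the smallest p of an exact sign-flip test is 0.5, and no p is given for these ratios. Both of the loci that make miR-103-3p were the low ones, and Mir107, whose 3p arm stands in 1 hairpin only, was the high one. How many reads of these 3 loci fell among those that mapped to several places was not tested. The counts of the Mir103 loci are thus not the level of miR-103-3p, nor is the count of Mir107 that of miR-107-3p.

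The mir-15/16 relatives that share the shifted seed lay on both sides of the level of Mir107. Mir322 stood at 5935.4 and 4777.4 CPM, Mir15b at 2283.7 and 2598.1, Mir195a at 1222.4 and 1924.3, and Mir15a at 1379.9 and 729.117. Mir497a, listed in M21 as Mir497, stood at 1175.9 and 740.392 CPM, Mir16-1 at 462.6 and 795.7, and Mir16-2 at 98.5 and 148.7. Mir195b had 0 reads and 1 read. Per base of hairpin, Mir107 with a mean of 11.7 CPM lay between Mir15a at 12.6 and Mir497a at 11.4, below Mir322 at 56.4, Mir15b at 38.1 and Mir195a at 16.7, and above Mir16-1 at 6.77 and Mir16-2 at 1.30. The mir-15/16 genes are known for restraining the cell cycle of cardiomyocytes. All 8 together had 10.7 times (10.2 to 11.2) the reads of the pantothenate kinase loci in library 1 and 13.2 times (12.6 to 13.9) in library 2. The sequence of miR-16-5p stands in both Mir16-1 and Mir16-2, as that of miR-103-3p does in both Mir103 loci. Reads that mapped to several places may therefore be missing from either side, so this ratio and order describe assigned reads, not miRNA levels. The kinase loci took 0.118% and 0.0888% of assigned reads, and the relatives 1.26% and 1.17%.

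**Figure D4:**
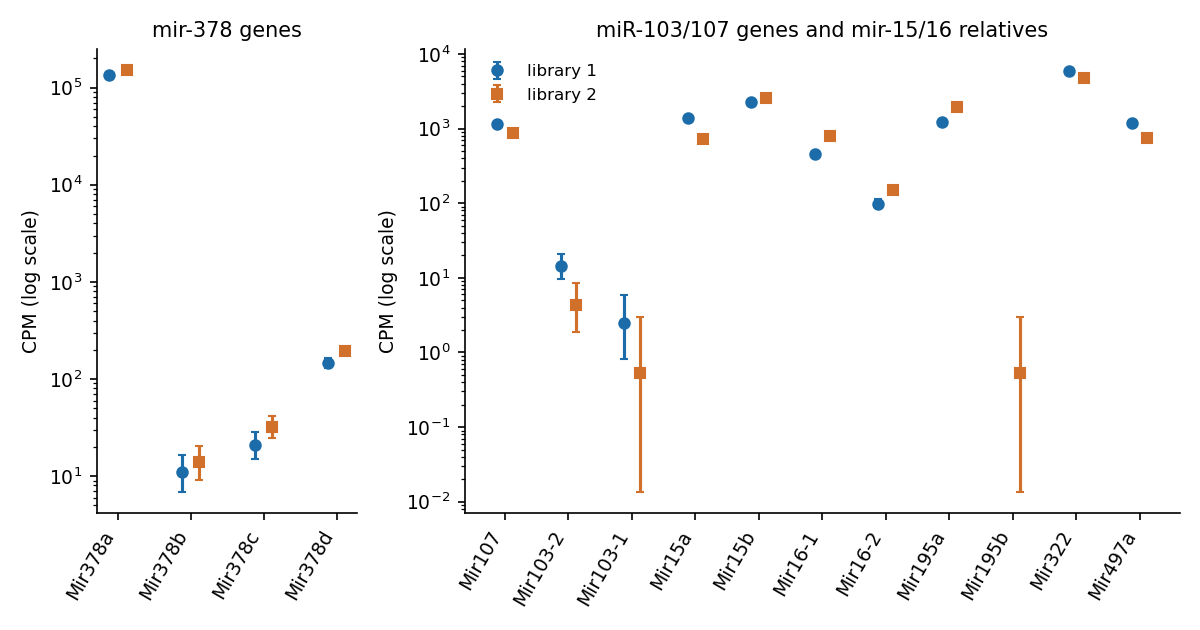
CPM (log scale) of the mir-378 genes, and of the miR-103 and miR-107 genes beside the mir-15/16 genes, in library 1 (circles) and library 2 (squares) with exact 95% counting intervals. Mir378a lies far above its relatives, by 767 and 625 times their sum, and Mir107 lies within the range of the mir-15/16 genes while the Mir103 genes lie below all of them but Mir195b.

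The 2 replicate libraries were compared gene by gene with a two-sided exact binomial test whose null share came from the assigned totals. It was run on the 344 genes with 10 or more reads summed, and Benjamini-Hochberg adjustment covered all of them. Genes with an adjusted p under 0.05 whose CPM differed at least 2-fold were called. The test models counting error only and compares these libraries, not conditions. Of the 344 genes 17.7% were called in either direction, and 12.2% were called higher in library 1. Of the 61 calls, 42 (68.9%) pointed to library 1 and 19 to library 2, and with trimmed-mean scaling (TMM) the share pointing to library 1 was 48.2% of 56 calls. Of the 5 metabolic-gene miRNAs 4 could be tested, Mir103-1 having too few reads, and 1 of the 4 was called. The call was Mir103-2, at 29 reads against 8, a CPM 3.38 times higher in library 1. Its log2 ratio of library 2 over library 1, with 0.5 added to each count, was -1.69 (counting interval -3.10 to -0.59, exact binomial test, adjusted p = 0.00338). Over the other scalings, denominators and pseudocounts and with both strands counted, that log2 ratio ranged from -1.74 to -1.50 and its adjusted p from 0.00338 to 0.0106. Set against the reads of Mir107, which needs no scaling, Mir103-2 had an odds ratio of 2.57 (Fisher exact test, adjusted p = 0.0532). Set against those of Mir33, the odds ratio was 2.11 (Fisher exact test, adjusted p = 0.509). Both of these lay above the 0.05 threshold. With a minimum of 50 reads, Mir103-2 was not tested.

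By the adjusted p alone, with no fold threshold, 54.1% of tested genes passed, and 3 of the 4 did so: Mir378a, Mir107 and Mir103-2. Mir378a was 1.106 times higher in library 2, a log2 ratio of 0.15 (0.14 to 0.15, exact binomial test, adjusted p = 9.67e-305). Mir107 was 1.31 times higher in library 1, a log2 ratio of -0.39 (-0.48 to -0.30, exact binomial test, adjusted p = 1.32e-16). Mir33 had a log2 ratio of -0.63 (-2.26 to 0.79, exact binomial test, adjusted p = 0.491), an interval that holds both a fall and a rise. For Mir103-1 the untested log2 ratio was -1.77 (-7.78 to 0.94). The median log2 ratio of the 344 genes was -0.19, with Mir107 and Mir33 below it and Mir378a above it. With TMM scaling, the median moved to 0.00, Mir378a to 0.34 and Mir107 to -0.20.

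Of the 100 tested genes with 1000 or more reads, 11 were called (11%), and their median absolute log2 ratio was 0.32. Among these 100, 26 lay closer to 0 than Mir378a and 59 closer than Mir107. Of the 128 tested genes with 10 to 100 reads, 28 were called (21.9%), and Mir103-2 and Mir33 belong to that range. For all tested genes the median absolute log2 ratio was 0.46.

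**Figure D5:**
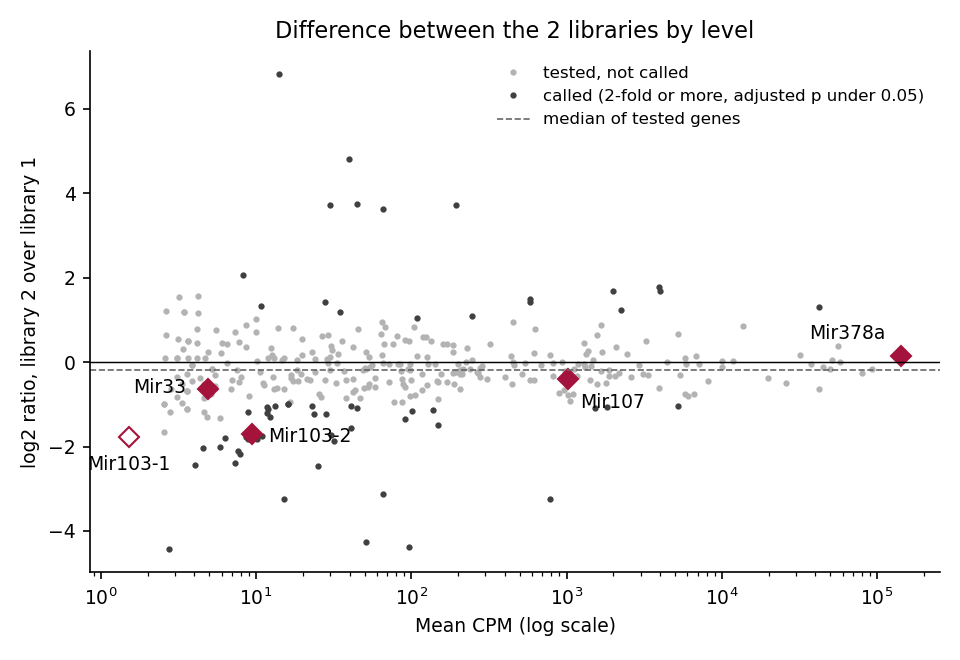
Log2 ratio of library 2 over library 1 against mean CPM (log scale) for the 344 tested genes, with called genes in black, the median as a dashed line and the 5 genes as diamonds (Mir103-1, open, was not tested). Mir378a lies close to 0 at the right edge, and Mir103-2 lies at -1.69 among low-count genes.

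Other miRNAs known for the same branches of metabolism give the setting of these genes. A list of 18 miRNA genes known to act on ABCA1, the LDL receptor or SREBP genes, Mir33 among them, had reads for 16, and 14 were tested. Called higher in library 1 were 2 of the 14 and higher in library 2 were 0, near the 12.2% of all 344 genes called higher in library 1, with a median log2 ratio of -0.20 against -0.19 over all 344 genes. The 2 were Mir185, with 2840 reads in library 1 and 279 in library 2 (log2 ratio -3.24), and Mir182, with 122 and 38 (log2 ratio -1.57). Mir182, under 100 CPM, was named after its values were seen. The list took 1.07% and 1.25% of assigned reads.

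Mir33 itself was a minor gene of that list in the heart. By CPM, not scaled for length, its highest genes were Mir27b at 5249.3 ± 1685.0 CPM, Mir27a at 1667.8 ± 690.0, Mir145a at 1333.1 ± 125.4 and Mir106b at 1159.9 ± 190.9 (SD, n = 2). Next came Mir185 at 785.1 ± 898.5 CPM, Mir10b at 682.0 ± 20.8 and Mir223, a leukocyte miRNA, at 216.5 ± 17.7. Mir128-1 stood at 149.6 ± 34.6 CPM, Mir144, an erythroid miRNA, at 141.3 ± 2.44, and Mir148a at 106.2 ± 39.4. Those 10 genes lay above 100 CPM, and Mir33 at 4.88 CPM did not. Mir758 and Mir19b-2 had no assigned read, and reads that mapped to several places are not in this count.

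A list of 13 miRNA genes known for insulin signalling or glucose transport held the 3 pantothenate kinase loci. Of these 13, 12 had reads and 11 were tested, with 2 called higher in library 1, 1 higher in library 2 and a median log2 ratio of -0.17, beside 17.7% of all 344 genes called in either direction. The calls were Mir103-2, Mir375 with 34 and 9 reads (log2 ratio -1.76), a miRNA of pancreatic islets, and Mir29c with 312 and 623 reads (log2 ratio 1.10). Mir375, at a mean of 10.9 CPM, was named after its values were seen. The list took 8.20% and 6.92% of assigned reads, most of it Mir143 at 37774.0 ± 704.6 CPM and Mir26b at 26040.6 ± 6193.8 CPM (SD, n = 2). Mir93 stood at 5754.3 ± 2061.2 CPM and Mir29a at 4470.2 ± 3.18. Mir107 at 1020.5 CPM was thus the fifth of the list by assigned reads, not scaled for length. Mir29c at 245.3 ± 126.2 and Mir223 followed, and Mir802 had no read.

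A list of 11 miRNA genes known for fatty acid use, mitochondria or brown fat held Mir378a, and 10 of them matched the annotation, all but Mir696. Of the 10, 9 were tested, 2 were called higher in library 1 and 0 in library 2, and the median log2 ratio was -0.04. Over all 344 genes 17.7% were called in either direction and 12.2% higher in library 1. The 2 were Mir208a (log2 ratio -1.05) and Mir122, a liver miRNA, with 237 and 25 reads (log2 ratio -3.12) and named after its values were seen. The list took 19.9% and 19.3% of assigned reads, and Mir378a had the most reads. After it came Mir23a at 42206.0 ± 13034.0 CPM, Mir208a at 5198.2 ± 2553.4, Mir34a at 3247.4 ± 798.4 and Mir455 at 1295.6 ± 24.4 (SD, n = 2). Mir181c stood at 542.3 ± 6.15 CPM, Mir210, induced by low oxygen, at 184.2 ± 35.6 and Mir193b at 117.7 ± 16.1.

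Some markers of other tissues were lower in library 2 and others higher, beside a median log2 ratio of -0.19 over all 344 tested genes. Of the liver list, with 3 of 3 detected and sums of 166.1 and 56.4 CPM, the gene called was Mir122, at 118.5 and 13.4 CPM. Mir192 stood at 23.5 and 24.7 CPM and Mir194-1 at 24.0077 and 18.3 CPM, and neither was called. The skeletal muscle pair summed to 98.5 and 5.37 CPM, nearly all of it Mir206. The brown fat list, with 3 of 3 detected, summed to 1442.0 and 1386.8 CPM, a small difference whose direction depends on the scaling. Neither of its 2 tested genes was called. The epithelial list, with 5 of 5 detected, had sums of 350.1 and 762.4 CPM. In it Mir200a and Mir200b were called higher in library 2, and Mir429, not called, stood at 16.0051 and 10.2 CPM. The part of such tissue in the counts of Mir378a, Mir107, Mir103-2, Mir33 and Mir103-1 was not tested.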

How the data were processed

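Short RNAs of mouse heart were sequenced in 2 libraries, and the authors deposited 1 table of whole-number raw read counts per miRNA gene for each library, with no header and no normalization. Per the text deposited beside the tables, the assembly was mm10 and the annotation M21. The aligner was not given in the sources used here, nor was the counter. The 3 count columns hold both strands, the sense strand and the antisense strand, as read from their values. The labels state no molecular identifiers, so intervals cover counting error only. The 4 rows that name no gene (unmapped, several places, no gene, ambiguous) stayed out of totals and tests. Reads mapping to several places were 41.5% and 42.9% of all reads.

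Gene symbols, positions and hosts came from GENCODE M21 and sequences from RefSeq on GRCm38.p6. The test between libraries was an exact binomial test with Benjamini-Hochberg adjustment in SciPy 1.17.1 (Python 3.11.15), tested on simulated data. The simulated counts held counting error alone, so they do not show how the test behaves with further spread between libraries. The libraries were not copies (chi-square 92267.6 on 343 degrees of freedom). Log2 ratios had 0.5 added to each count. Fisher exact tests compared the reads of 3 pairs of genes between the libraries, with Benjamini-Hochberg adjustment over these 3. Alternatives used edgeR 4.0.16 TMM factors, DESeq2 1.42.0 size factors, and all reads or all but Mir378a as denominator. Others used both strands, pseudocounts 0.1 and 1, minimum counts of 1 and 50, and fold thresholds of 1.5 and none. Each replicate was also left out.

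The genes named are the 5, the gene opposite Mir378a, the mir-378 and mir-15/16 relatives, the 3 genes nearest in level to each of the 5 at 100 CPM or more, and members of the cholesterol, glucose and mitochondria lists at 100 CPM or more. Exceptions are stated. The 5 genes and the lists were chosen with earlier results of these data known.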

Additional observations from a re-analysis of the deposited data

Results flagged for a closer look

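Reads outside the assigned counts were abundant. Those mapped to several places numbered 2273922 in library 1 and 2098983 in library 2, more than all assigned sense-strand reads, and the tables do not say from which loci they came. They bear on Mir103-1 and Mir103-2, whose hairpins share the whole of miR-103-3p. They bear on Mir107 too, which shares a stretch of 22 bases with both. Their part in the counts of these genes was not tested.

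The antisense column of Gm25301, the annotated gene opposite Mir378a, held 271612 reads in library 1 and 279837 in library 2, far above the floor of 3 counts. These equal the sense-strand counts of Mir378a.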

How the results depend on the processing

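Of 70 values recomputed under the alternatives that keep both libraries, 61 stayed the same, 9 moved and 0 reversed. The same meant within 1.5-fold for numbers of called genes and an unchanged call and direction for log2 ratios between libraries. For levels and ratios of loci it meant within the spread between the libraries. Some values could not change, such as the call under another pseudocount or that of the untested Mir103-1. The 61 is thus not a measure of stability. The genes called numbered 61, against 105 with a 1.5-fold threshold and 186 with none. The genes called among the 5 numbered 1, against 0 with a minimum of 50 counts, where 2 were tested, and 3 with no fold threshold. With all reads as the denominator, the mean level of Mir378a was 53381.2 CPM, of Mir107 379.339 CPM and of Mir33 1.81036 CPM. With both strands counted together, Mir378a fell to 0 CPM, since its reads became ambiguous, and Mir107 stood at 1321.5 CPM over the smaller total. With TMM or DESeq2 scaling, 48.2% of 56 calls were higher in library 1, against 68.9% of 61. Leaving out a replicate leaves 1 library, so it gives a level and no test and says nothing about stability. No paired analysis was possible because there is only 1 group. Depth limits Mir33 and the Mir103 genes, with 37 reads summed or fewer.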
